A study of Rattus norvegicus with 39 samples.

Results

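The ncRNA table of the deposited data lists Ensembl noncoding transcripts, and 121 of its 1563 rows carry the Ensembl biotype misc_RNA. The rows with a summed count of at least 20 over the 39 libraries numbered 54. Of these, 16 rows formed 8 pairs with identical counts in every library, and each pair was treated as 1 row, which left 46 distinct misc_RNA rows. The row just inside the limit had a summed count of 21 and the row just outside had 18. The 67 rows outside the limit included 12 with no count at all. The distinct rows are called here by their rank, from the largest to the smallest mean share of the summed misc_RNA counts, since none of their identifiers could be paired with a gene name.

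The biotype misc_RNA collects short noncoding RNAs that Ensembl places by sequence family outside its named classes. It includes 7SL RNA, the scaffold of the signal recognition particle that brings ribosomes to the endoplasmic reticulum, 7SK RNA, which holds a transcription elongation factor inactive, and Y and vault RNAs, which bind proteins of RNA quality control and of the vault particle. These RNAs are made by RNA polymerase III, and mammalian genomes hold many diverged copies of them. Mature sperm have shed most of their cytoplasm and are transcriptionally silent, so their small RNA consists largely of fragments of tRNA, rRNA and such structural RNAs.

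The small RNA came from spermatozoa of the cauda epididymis of wild-type male Fischer rats 11 to 12 weeks old. EGME (ethylene glycol monomethyl ether), an industrial solvent known as a testicular toxicant, was given by daily oral gavage for 5 days, and sperm were taken after 5 weeks without exposure. The groups were EGME0 (0 mg/kg/d, water as vehicle, n = 10), EGME50 (50 mg/kg/d, n = 10), EGME60 (60 mg/kg/d, n = 9) and EGME75 (75 mg/kg/d, n = 10). Libraries were built from 10 ng of total RNA (mirVana isolation, DNase-treated) with the Ion total RNA seq kit v2, and each of 13 sequencing chips carried 3 of them. The labels do not say that the libraries of a group came from separate animals, so the p-values measure the spread between these libraries.

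The 2 mitochondrial rRNA rows took most of the ncRNA table, with medians of 99.5%, 99.0%, 97.6% and 95.8% of its counts from EGME0 to EGME75, and were left out of the scalings below except where one is said to include them. The remaining ncRNA counts numbered 421 to 46357 per library, with group medians of 3968.5, 6218, 12323 and 9231. The libraries EGME75 replicate 24 (421 counts) and EGME0 replicate 33 (762 counts) stood below all others and carried the same chip label. The 3 lists of marker miRNAs moved at EGME75 in the miRNA table, where edgeR called 42.9% of the 105 miRNAs tested, higher or lower. The share over all miRNAs in each direction was not counted, so the lists are not shown to stand out. On the blood cell list 3 of 3 tested were higher. Their list's summed level ran from 0 to 3432 CPM (counts scaled to a library total of 1000000) at EGME0 and from 2478 to 48241 CPM at EGME75. On that list miR-144-3p was at 0 in both groups, and miR-486-5p had no row under that name, so its level is not known. Of the epithelial and muscle list 4 of 6 were higher (16291 to 39182 and 35936 to 131500 CPM, with miR-1-3p at 0 at EGME75). Of the male germ cell list 4 of 5 were lower (197624 to 330892 and 64748 to 220530 CPM). The part of these shifts in the misc_RNA values was not tested. In bulk RNA, fewer cells of a type and less RNA per cell cannot be told apart.

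The misc_RNA rows were the main part of the ncRNA counts outside mitochondrial rRNA, and their share of those counts was lower at each dose than in the control group. At EGME0 they made up 71.4% to 94.0% of the counts, with a median of 86.2%. At EGME50 the share ran from 62.3% to 90.4% around a median of 71.1%. At EGME60 it ran from 38.1% to 92.5% around 63.9%, and at EGME75 from 40.9% to 72.7% around 60.8%. Libraries below the control median numbered 9 of 10, 7 of 9 and 10 of 10, and those below the lowest control library 5, 6 and 9. The groups overlapped at every dose, at EGME75 by a single library.

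The same counts set against all counts of the 4 deposited tables (miRNA, tRNA, ncRNA and RNAcentral) did not follow that order. Scaled to 1000000 counts over the 4 tables, the misc_RNA rows held 202 to 1732 at EGME0 (median 582), 221 to 1377 at EGME50 (median 491), 426 to 2508 at EGME60 (median 680) and 546 to 1157 at EGME75 (median 768). At EGME75, 9 of 10 libraries lay above the control median and none above the highest control library. The ncRNA rows that were neither misc_RNA members nor mitochondrial rRNA had medians of 76.7, 176, 367 and 503 on the same scale. Their level at EGME75 (352 to 1311) lay above that at EGME0 (39.4 to 333). At EGME60 and EGME75 the median share of the misc_RNA rows was thus lower and their median level among all counts higher than at EGME0. At EGME50 both were lower, with 7 of 10 libraries below the control median level. Relative to the tRNA table the misc_RNA medians were 788, 672, 1006 and 1333 on a scale of 1000000 tRNA counts.

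**Figure D1:**
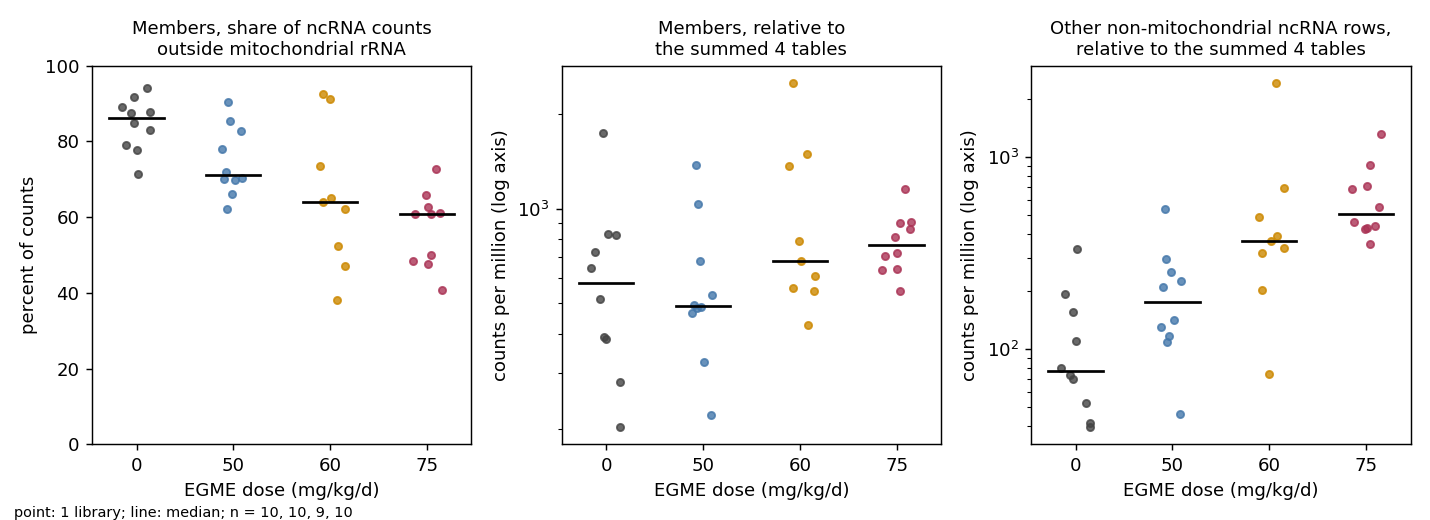
Left, the summed misc_RNA rows as a percent of the ncRNA counts outside mitochondrial rRNA, by EGME dose in mg/kg/d. Middle and right, on log axes, the CPM over the 4 tables for the misc_RNA rows and for the other ncRNA rows; points are libraries and lines are medians. The share falls from a median of 86.2% at EGME0 to 60.8% at EGME75, while the misc_RNA level has medians of 582 and 768 and the other rows rise from 76.7 to 503.

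A small group of rows with similar counts carried the class. The rows of rank 1 to 10 held 73.3% to 95.2% of the misc_RNA counts of a library, with a median of 84.3%. Their group medians were 84.3%, 83.9%, 83.5% and 84.7% from EGME0 to EGME75, so the split between these rows and the rest was nearly the same at each dose. The rank 1 row had a summed count of 30025 and the rank 2 row 28848. The rows of rank 3, 4 and 5 had 22598, 22593 and 22584, the rank 10 row had 18526, and the rank 11 row followed at 6948. Median levels are given from here on in CPM of the ncRNA counts without mitochondrial rRNA after trimmed mean of M-values (TMM) scaling. The median levels of the rank 1 to 10 rows lay between 48095 and 73954 CPM at EGME0 and between 48183 and 77130 CPM at EGME75.

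**Figure D2:**
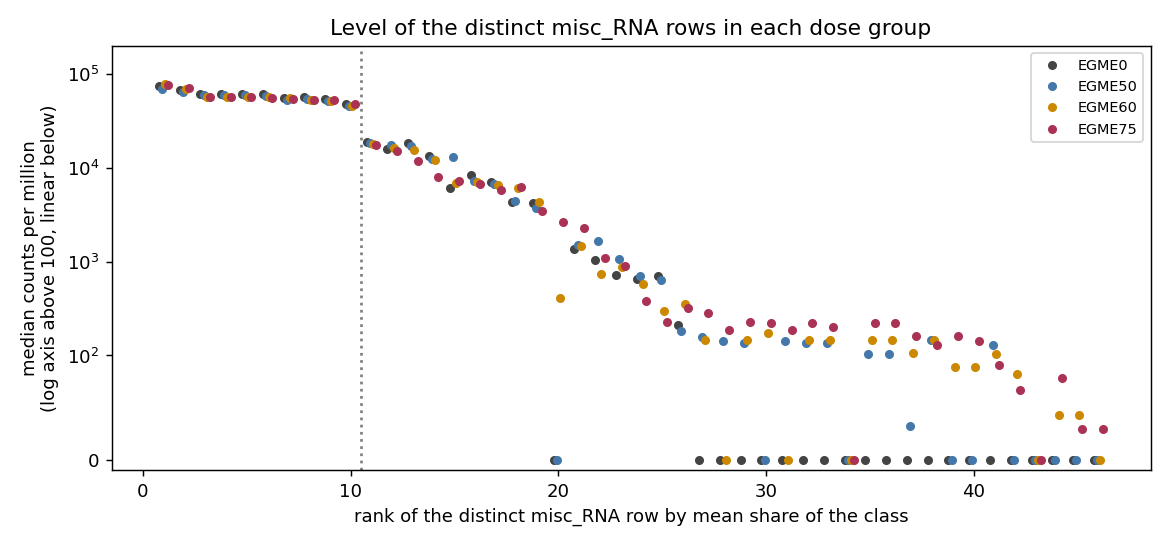
Median CPM of each of the 46 distinct misc_RNA rows in the 4 dose groups, against rank by mean share of the class (log axis above 100 CPM, linear below). The dotted line stands between rank 10 and rank 11, where the summed count falls from 18526 to 6948. The group medians lie visibly apart among the lower ranks only, and the range of each dose group overlaps with that of EGME0 in every row.

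The leading rows had similar counts when compared over all 39 libraries together, and may largely hold the same reads. The summed absolute difference of counts over the 39 libraries was 8.17% of the larger total between rank 1 and rank 2. With rows joined at a difference of at most 10%, the rank 1 and 2 rows formed one set and the rank 3 to 10 rows another of 8 rows. The smallest difference between a row of rank 1 to 10 and any lower row was 62.5%. The measure cannot be smaller than the gap between the summed counts of the rows compared. That value is the gap between rank 10 (18526) and rank 11 (6948), so it does not show whether reads are shared. The split into these sets also largely follows the summed counts. Reads that fit several copies of one RNA could have been counted for each, and the counting of such reads is not given in the sources used here. The calls on these 10 rows are therefore uncertain for any single row and do not stand for 10 separate RNAs. The RNAcentral table, which may hold the same reads, was searched for the entries most like them. For this search the difference was taken in percent of the misc_RNA row's own total, not of the larger total. For each of the 10 rows the RNAcentral entry with the most similar counts was of the class srpRNA, the RNA of the signal recognition particle, at a difference of 18.9% to 32%. This was not particular to the leading rows. An srpRNA entry was closest for 15 of the 22 rows tested below, among them rank 14 (26.4%) and rank 16 (24.7%). For rank 13 the closest entry was a microRNA and for rank 21 an rRNA, so similar counts do not identify an RNA. None of the 22 rows tested below had an RNAcentral entry with identical counts.

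**Figure D3:**
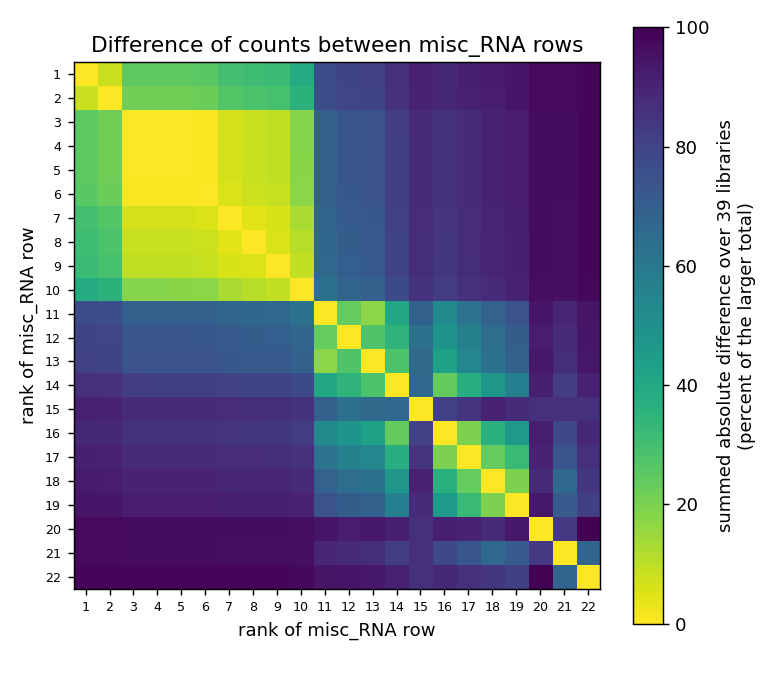
Summed absolute difference of counts over the 39 libraries, in percent of the larger total, between each pair of the 22 misc_RNA rows that passed the filter on low counts, ordered by rank on both axes. The yellow block of rank 3 to 10 and the pair of rank 1 and 2 are the near copies, and the difference between rank 1 and rank 2 is 8.17%.

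Each dose was compared with the vehicle to ask which misc_RNA rows differed 5 weeks after exposure. The filter on low counts kept 22 of the 46 distinct rows, in a fit of 85 ncRNA rows by edgeR's quasi-likelihood test with Benjamini-Hochberg adjustment over all 85 and a threshold of 0.05. At EGME50 no misc_RNA row of the 22 passed, where 27.1% of all rows did. None had an unadjusted p under 0.05. DESeq2 called 0 misc_RNA rows, among 15 calls over all 85 rows, and limma-voom called none of the 85 rows at all. The median log2 fold change was -0.08 for the misc_RNA rows and 0.99 for all 85. At EGME60 again none of the 22 passed, where 50.6% of all rows did, and 1 had an unadjusted p under 0.05. DESeq2 called 2 there, both lower, among 24 higher and 5 lower over all rows, and limma-voom 0, among 8 higher and 1 lower. The medians at EGME60 were -0.03 and 1.76. The counts at EGME60 moved without single libraries, to 3 without EGME0 replicate 1, 4 without EGME0 replicate 25, 3 without EGME60 replicate 6, and 1 without EGME0 replicate 33 or EGME60 replicate 30.

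At EGME75, 9 of the 22 misc_RNA rows passed, 2 higher and 7 lower, where 65.9% of all rows did (54.1% higher and 11.8% lower). DESeq2 called 0 higher and 20 lower of the 22, among 32 higher and 33 lower of all rows, and limma-voom 2 higher and 4 lower, among 43 higher and 4 lower. The median log2 fold change was -0.16 for the misc_RNA rows and 2.06 for all 85 in edgeR, and -1.53 and 0.75 in DESeq2. Among the other classes of the same fit, 26 of 26 rRNA rows were higher with a median of 2.63, 12 of 14 lincRNA rows were higher with a median of 3.66, and none of 12 snRNA rows was called, with a median of 0.38. At EGME75, 20% of all rows (17 of 85) had groups that did not overlap with the control group, and none of these was a misc_RNA row. A slope on dose over all 4 groups, expressed as the log2 change across 75 mg/kg/d, called 7 of the 22, 2 higher and 5 lower, where 61.2% of all rows passed (55.3% higher and 5.88% lower). The slope's medians were -0.13 and 2.10. The 9 calls at EGME75 became 8 to 18 when single libraries were left out, and stayed within 1.5 times of 9 in 6 of the 20 fits, those without EGME0 replicate 17 or EGME75 replicate 7, 8, 15, 24 or 40.

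How many misc_RNA rows were lower at EGME75 depended on the scaling, as did the calls over all rows and, through the filter, the rows tested. With library totals alone, 2 misc_RNA rows were higher and 16 lower, among 45 higher and 19 lower of all 85 rows. With TMM factors that included the mitochondrial rRNA rows, 1 was higher and 18 lower of 23 tested, among 63 higher and 33 lower of 134 rows. With the totals of the 4 tables, 2 were higher and 0 lower, among 65 higher and 1 lower of 104 rows. With tRNA totals, 4 were higher and 0 lower of 23 tested, among 76 higher and 1 lower of 110 rows. Scaled on the ncRNA rows that are not misc_RNA members, 1 was higher and 20 lower, among 23 higher and 38 lower of 75 rows, and the median of all rows was itself -0.96 in that fit. Across these 5 scalings and TMM without mitochondrial rRNA, the median of the misc_RNA rows stood below that of all rows, with differences of -2.66 to -0.81 on the log2 scale and -2.22 under TMM without mitochondrial rRNA. A scaling moves all rows of a library together, so this shared direction is no separate support. The difference depended on the rows kept, and without a filter it was -0.13, with 46 misc_RNA rows among 834. The sign of the misc_RNA rows' own change was not the same in each of these scalings.

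Of the leading rows, rank 1 and rank 2 did not pass the edgeR threshold at any dose under TMM without mitochondrial rRNA. The rank 1 row ran from 67455 to 91053 CPM at EGME0 (median 73954), 62017 to 87641 at EGME50 (median 69513), 61262 to 108644 at EGME60 (median 78914) and 36097 to 95778 at EGME75 (median 77130). The groups overlapped widely, and the lowest value belongs to EGME75 replicate 24. The log2 fold changes of the rank 1 row were -0.08, 0.05 and -0.04 (SE 0.11 in each comparison, edgeR adjusted p = 0.609, 0.756 and 0.782). The rank 2 row had medians of 67570, 65106, 70075 and 70640 CPM, and log2 fold changes of -0.04, 0.07 and 0.00 (SE 0.10, 0.11 and 0.10, edgeR adjusted p = 0.841, 0.650 and 0.981). Both rows were called lower at EGME75 in DESeq2 (-1.45 and -1.38) and with scaling on the rows that are not misc_RNA members (-1.71 and -1.67). The misc_RNA rows were most of the counts scaled, and the TMM factors moved with them. The median factor was 1.18 at EGME0 and 0.876 at EGME75, where the median misc_RNA share was 86.2% and 60.8%. Values near 0 for the leading rows under this scaling are therefore no evidence of an unchanged level.

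The rows of rank 3, 4, 5, 6 and 8, all from the set of near copies, passed the threshold at EGME75 with small differences under the same scaling. The rank 3 row ran from 56739 to 66455 CPM at EGME0 (median 61405), 54162 to 63313 at EGME50 (median 59387), 50979 to 75755 at EGME60 (median 57627) and 32298 to 59451 at EGME75 (median 57429). At EGME75 all 10 libraries lay below the control median and 4 below the lowest control library. The log2 fold change of the rank 3 row at EGME75 was -0.18 (SE 0.07, edgeR adjusted p = 0.0206), and those of rank 4, 5, 6 and 8 were -0.18, -0.18, -0.20 and -0.19. At EGME50 and EGME60 the rank 3 row stood at -0.08 and -0.06 (SE 0.07 in both, edgeR adjusted p = 0.385 and 0.588). Of the same set of near copies, the rank 7, 9 and 10 rows did not pass at EGME75 (-0.14, -0.10 and -0.05). The rank 3 call was lost with RLE factors, with the totals of the 4 tables, with tRNA totals and with identical rows kept apart. Its value ran from -1.31 to -0.19 when single libraries were left out. It was -1.56 in DESeq2 and -1.82 with scaling on the rows that are not misc_RNA members, called lower in both.

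The share of a row within the summed misc_RNA counts does not depend on the scaling, and it was compared for the rows of rank 1 to 5 at each dose. The sum includes the row and its near copies, which limits how far its share can move. No comparison of the 15 passed a two-sided permutation test of the difference in means after Benjamini-Hochberg adjustment over the 15, and 3 had an unadjusted p under 0.05. These were the near copies of rank 3, 4 and 5 at EGME75, which count in effect once. The rank 3 row held 8.66% ± 0.377 (SD, n = 10) of the misc_RNA counts at EGME0 and 8.20% ± 0.380 (n = 10) at EGME75, and 9 of 10 libraries at EGME75 lay below the control median (p = 0.0148 by permutation, adjusted p = 0.074). The rank 1 row held 10.7% ± 1.06 at EGME0 and 11.0% ± 1.57 at EGME75 (permutation p = 0.563, n = 10 in both groups). The rank 2 row held 9.67% ± 0.845 and 10.3% ± 1.41 (permutation p = 0.208, n = 10). Without EGME0 replicate 9, EGME75 replicate 23 or EGME75 replicate 40, the 3 near copies at EGME75 passed.

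Among the middle ranks, the rows of rank 13 and 14 were lower at EGME75 than at EGME0. The rank 14 row, transcript ENSRNOT00000083352 of gene ENSRNOG00000060012, ran from 3998 to 27527 CPM at EGME0 (median 13269), 5804 to 16958 at EGME50 (median 12334), 4065 to 18690 at EGME60 (median 12012) and 4638 to 13236 at EGME75 (median 8063). At EGME75 all 10 libraries lay below the control median, yet none lay below the lowest control library. Its log2 fold change at EGME75 was -0.73 (SE 0.28, edgeR adjusted p = 0.0202), after -0.24 at EGME50 and -0.27 at EGME60, which did not pass (edgeR adjusted p = 0.505 and 0.515). Without single libraries it ran from -1.67 to -0.70 and kept its call. The slope was -0.59 (edgeR adjusted p = 0.0437), and it lost its call in 8 of 39 fits that left out 1 library (-1.48 to -0.42 over the 39), namely EGME60 replicate 14, 22, 29, 30 or 38 or EGME75 replicate 7, 8 or 15, and in 5 of 14 other alternatives, with chip as a block among them. The call at EGME75 was lost with the totals of the 4 tables (-0.31), with chip as a fixed block (-0.53) and in limma-voom with a random chip effect (-0.59), and with tRNA totals the sign turned (0.058). Its share of the misc_RNA counts was 1.86% ± 0.807 (SD, n = 10) at EGME0 and 1.29% ± 0.479 (n = 10) at EGME75 (permutation p = 0.0723, and 0.682 after adjustment over 66 comparisons).

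The rank 13 row, transcript ENSRNOT00000079238 of gene ENSRNOG00000054690, had the same counts as 1 other misc_RNA row, from which it cannot be told apart. It ran from 4632 to 33936 CPM at EGME0 (median 18601), 8618 to 21803 at EGME50 (median 17027), 7391 to 22081 at EGME60 (median 15628) and 4706 to 17786 at EGME75 (median 11964). All 10 libraries at EGME75 lay below the control median and within the control range. The log2 fold change at EGME75 was -0.65 (SE 0.26, edgeR adjusted p = 0.0271), after -0.16 and -0.25 at the lower doses (edgeR adjusted p = 0.662 and 0.522). It kept its call without any single library, at -1.64 to -0.65. The call was lost with the totals of the 4 tables (-0.25), with chip as a fixed block (-0.53) and in limma-voom (-0.55), and the sign turned with tRNA totals (0.16). The rank 13 row resembled the rank 11 row (difference of counts 17.4%), which was not called at EGME75 (-0.23, SE 0.23, edgeR adjusted p = 0.401).

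The row of rank 20, transcript ENSRNOT00000082935 of gene ENSRNOG00000051668, showed the largest fitted change of the misc_RNA rows tested at EGME75. It had no count in 7 of 10 control libraries, and 2, 5 and 6 counts in the other 3. At EGME50 it had no count in 8 of 10 libraries, and 6 and 16 in the others. At EGME60 it was counted in 6 of 9 libraries, at 3, 7, 24, 42, 68 and 120. At EGME75 it was counted in 9 of 10 libraries, at 5, 6, 17, 24, 27, 43, 48, 50 and 201, and the library at 0 was the shallow EGME75 replicate 24. The row was thus counted in few libraries of the 2 lower groups and in most of the 2 higher ones, although the ranges overlapped. These counts are not set against depth, and a sparse row is found more often in deeper libraries. The median ncRNA counts outside mitochondrial rRNA were 3968.5, 6218, 12323 and 9231 from EGME0 to EGME75. The summed counts of the row were 13, 22, 264 and 421, so it entered the fit mainly through the groups where it was high.

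On the CPM scale ENSRNOT00000082935 ran from 0 to 5790 at EGME0 and from 0 to 49581 at EGME75, with medians of 0 and 2651. The highest control value was that of the shallow EGME0 replicate 33 and the highest at EGME75 that of replicate 39. The log2 fold change was 4.80 at EGME75 (SE 1.31, edgeR adjusted p = 0.00202), 2.85 at EGME60 (SE 1.29, edgeR adjusted p = 0.0631) and 0.41 at EGME50 (SE 1.32, edgeR adjusted p = 0.808), and the slope was 5.01 across 75 mg/kg/d (edgeR adjusted p = 0.001). Without EGME75 replicate 39 the value at EGME75 was 3.05, and without both shallow libraries 4.95, each past the threshold. The call was lost with chip as a fixed block (3.42) and in DESeq2 (2.57), with the sign kept. Its share of the misc_RNA counts was 0.101% ± 0.288 (SD, n = 10) at EGME0 and 1.10% ± 2.25 (n = 10) at EGME75 (permutation p = 0.0326, and 0.359 after adjustment over 66 comparisons).

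The row of rank 21, transcript ENSRNOT00000077383 of gene ENSRNOG00000051703, was counted in every library at low numbers, 2 to 18 at EGME0, 4 to 20 at EGME50, 3 to 178 at EGME60 and 1 to 47 at EGME75. Its level ran from 400 to 2316 CPM at EGME0 (median 1366), 636 to 2855 at EGME50 (median 1511), 554 to 3656 at EGME60 (median 1455) and 1558 to 5920 at EGME75 (median 2265). At EGME75 all 10 libraries lay above the control median and 5 above the highest control library. The log2 fold change at EGME75 was 1.22 (SE 0.35, edgeR adjusted p = 0.00265), after 0.23 and 0.49 at the lower doses (edgeR adjusted p = 0.635 and 0.266). As a share of the misc_RNA counts it went from 0.193% ± 0.0852 (SD, n = 10) to 0.470% ± 0.247 (n = 10) at EGME75 (permutation p = 6.1e-04, adjusted p = 0.0403), the single comparison that passed when the share test was extended to all 22 rows and 3 doses.

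The rise of ENSRNOT00000077383 relative to other ncRNA rows was not stable. The call was lost in 16 of the 20 fits that left out 1 library, at log2 fold changes down to 0.33. It was lost without both shallow libraries (0.67), and the sign turned in DESeq2 (-0.050), with the near-copy rows reduced to 1 row each (-0.066) and with scaling on the rows that are not misc_RNA members (-0.25). The share of the row within the misc_RNA class was higher at EGME75 in the extended share test. That test was added after seeing the data and was not repeated without single libraries. The change of the row against the rest of the ncRNA table depended on the scaling.

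**Figure D4:**
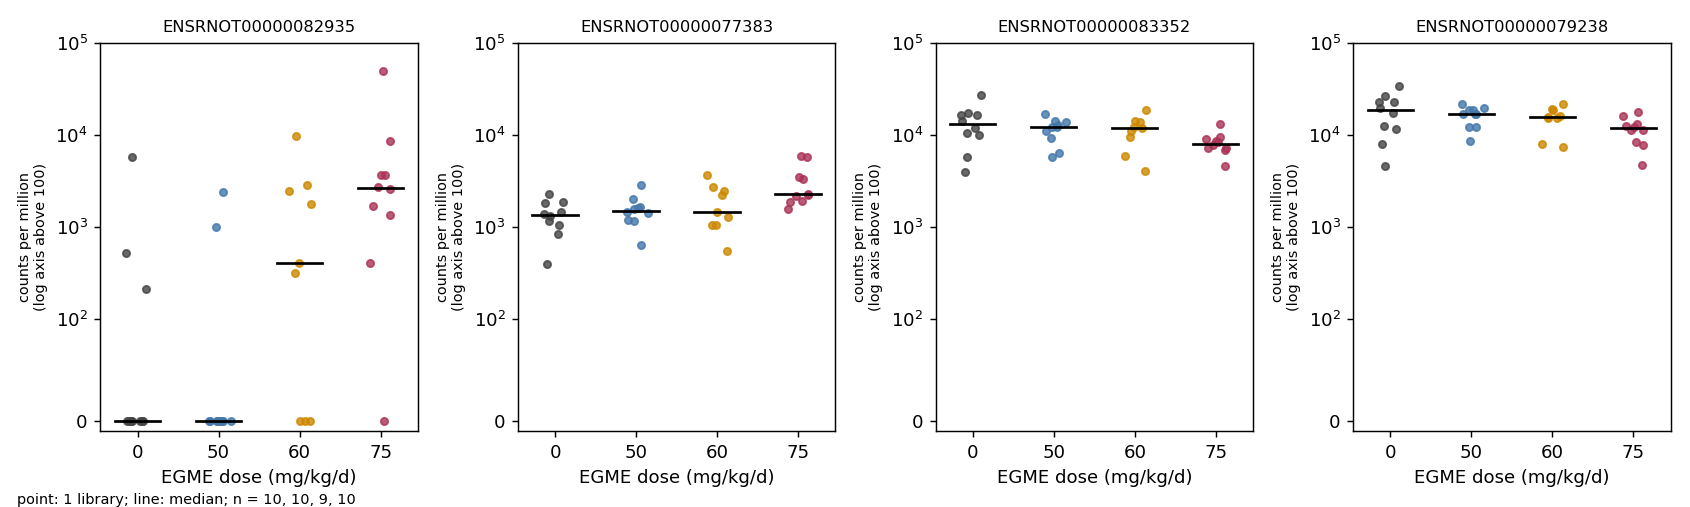
CPM of the 4 misc_RNA rows named by transcript, by EGME dose in mg/kg/d (log axis above 100 CPM, linear below); points are libraries and lines are medians. ENSRNOT00000082935 has a median of 0 at EGME0 and 2651 at EGME75 and overlaps with the control group, while ENSRNOT00000083352 has medians of 13269 and 8063.

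The other tested rows of rank 11, 12, 15 to 19 and 22 did not pass in any of the 3 dose comparisons under TMM without mitochondrial rRNA. At EGME75 all 8 were called lower in DESeq2, at -1.66 to -1.06, and with scaling on the rows that are not misc_RNA members, at -2.11 to -1.25. The rank 11 and 12 rows had medians of 19057 and 16017 CPM at EGME0 and 17401 and 15231 CPM at EGME75. The rank 15 row varied most within groups, from 1380 to 37318 CPM at EGME0 and from 29.7 to 18324 CPM at EGME60, and its log2 fold changes of 0.55, -0.33 and 0.27 were smaller than their standard errors of 0.59, 0.60 and 0.59. At EGME75 the rank 16, 17 and 19 rows stood at -0.26, -0.26 and -0.24, and the rank 18 and 22 rows at 0.22 and 0.49.

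The 24 distinct misc_RNA rows that did not pass the filter on low counts were sparse. A control library had counts in 0 to 14 of them, with a median of 5, and the medians at EGME50, EGME60 and EGME75 were 14, 19 and 19.5. The number of ncRNA counts outside mitochondrial rRNA was also higher in these groups, as given above. Set against those counts, the 24 rows had medians of 3862, 5143, 3530 and 4743 CPM without TMM factors from EGME0 to EGME75, with ranges of 0 to 5650 at EGME0 and 2375 to 11286 at EGME75 that overlapped.

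In the RNAcentral table the entries of the classes srpRNA, rnase and miscRNA were taken as the nearest in kind to the misc_RNA biotype. They are no independent evidence, since reads may stand in both tables. Of the 34 distinct srpRNA entries 14 were tested, and none was called at EGME75, where edgeR called 37.6% of 2656 entries (19.7% higher). The median of the srpRNA entries was 0.28 there and that of all entries -0.63. At EGME60, 4 srpRNA entries were higher with a median of 1.21, where 20.5% of entries were called (20.1% higher). The single rnase entry tested was higher at EGME60 and EGME75 (log2 fold change 2.51 and 2.38), and the 3 miscRNA entries tested were higher at both doses, at 1.78 to 4.22 at EGME75. At EGME50 none of the entries of these 3 classes was called by edgeR, where 1.51% of entries were called (1.47% higher). At EGME75 the median of the srpRNA entries thus lay above that of all RNAcentral entries, while that of the misc_RNA rows lay below that of all ncRNA rows, and each table was scaled on its own.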

How the data were processed

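The authors deposited tables of raw read counts on the sense strand for miRNAs, tRNA genes, Ensembl noncoding transcripts and RNAcentral entries (unit per the file headers and values). FastQC, Bowtie and DESeq2 are named, per the submitters' processing notes, with no version or role. How reads were counted, and how those with several matches were treated, is not given in the sources used here.

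From the deposited counts, the 2 mitochondrial rRNA rows were left out and rows with identical counts merged. Tests were made with edgeR 4.0.16 in R 4.3.3 (TMM, filterByExpr, robust quasi-likelihood fit of all 39 libraries, Benjamini-Hochberg adjustment). limma 3.58.1 and DESeq2 1.42.0 were alternatives. Permutation tests were two-sided, with 100000 permutations, in Python 3.11.15; those at EGME60 were exact. The members and lists were chosen with earlier results of these data known. The rows named by transcript were, by rule, the 2 with the largest change in each direction past the threshold at EGME75 with a mean of at least 10 counts. No sequence or gene name could be matched to the transcript identifiers, and none is printed.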

Additional observations from a re-analysis of the deposited data

Results flagged for a closer look

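Of 44 groups of values examined for a library standing apart (the gap to its nearest neighbour against the whole range of its group), 13 held one. The limit used marks about 1 in 20 groups if the values are normally distributed. Sparse or skewed values, such as those of ENSRNOT00000082935, do not meet that condition. No excess over chance can therefore be read from the 13. The rows of rank 3, 4 and 5 are near copies and count in effect once.

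At EGME60, replicate 13 stood above the other libraries in the rank 1 row (108644 CPM, next 81354) and in the rank 3, 4 and 5 rows (75755 CPM in each). At EGME75, replicate 24, the library with 421 ncRNA counts outside mitochondrial rRNA, stood below the others in the rank 3, 4 and 5 rows (32298 CPM in each, next 49581). At EGME50, replicate 11 stood highest in the rank 2 row (90690 CPM, next 72874).

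The sparse row ENSRNOT00000082935 had 1 library far above the rest in every group: EGME0 replicate 33 at 5790 CPM, EGME50 replicate 12 at 2404 CPM, EGME60 replicate 5 at 9848 CPM and EGME75 replicate 39 at 49581 CPM. The value of EGME0 replicate 33 rests on 5 counts in a library of 762. The summed misc_RNA rows, in CPM over the 4 tables, were highest among the controls in EGME0 replicate 26, at 1732 (next 831).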

How the results depend on the processing

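The main counts of misc_RNA rows called were 0 at EGME50, 0 at EGME60, 9 at EGME75 and 7 for the slope. Counts below are higher and lower of the misc_RNA rows, with the same over all rows in parentheses. With identical rows kept apart, the misc_RNA counts took 1 row of each identical pair (22 tested), while those over all rows took every row. At EGME75 the main split was 2 and 7 (46 and 10 of 85). The total was 18 under library totals alone, 2 and 16 (45 and 19), 5 under RLE factors, 2 and 3 (46 and 6), 19 with TMM including the mitochondrial rRNA rows, 1 and 18 (63 and 33 of 134), 2 with the totals of the 4 tables, 2 and 0 (65 and 1 of 104), 4 with tRNA totals, 4 and 0 (76 and 1 of 110), 3 with identical rows kept apart, 1 and 2 (51 and 7 of 119), 19 of 46 without a filter, 4 and 15 (104 and 94 of 834), and 20 in DESeq2, 0 and 20 (32 and 33). At EGME60 it was 8 with library totals alone, all lower (33 and 9), 1 with the totals of the 4 tables and 16 with tRNA totals, all higher (65 and 0; 91 and 0), 1 without a filter, higher (69 and 38), 6 with a depth covariate, 1 and 5 (49 and 5), and 2 in DESeq2, lower (24 and 5). For the slope it was 17 with library totals alone and with TMM including mitochondrial rRNA, 1 and 16 in each (45 and 18; 63 and 21), 2 with the totals of the 4 tables and 4 with tRNA totals, all higher (67 and 0; 78 and 0), 1 with identical rows kept apart, higher (50 and 2), and 18 in DESeq2, 1 and 17 (34 and 30). Of the alternatives chosen after seeing the data, near-copy rows reduced to 1 row each left 14 misc_RNA rows tested, with 2 called at EGME60, both lower (18 and 3 of 77), 13 at EGME75, 1 and 12 (30 and 28), and 10 on the dose slope, 1 and 9 (30 and 21). Scaling on the rows that are not members gave 2 at EGME60, both lower (16 and 12 of 75), 21 at EGME75, 1 and 20 (23 and 38), and 20 on the dose slope, 1 and 19 (24 and 35). Leaving out the 2 shallow libraries gave 1 at EGME60, higher (33 and 0 of 88), 17 at EGME75, 1 and 16 (43 and 21), and 11 on the dose slope, 1 and 10 (43 and 13). The cause of these differences was not tested. The count at EGME50 was 0 under each alternative run.

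Leaving out single libraries gave 0 to 4 rows at EGME60, 8 to 18 at EGME75 (beyond 1.5 times the main count in 14 of 20 fits), 1 to 18 for the slope (beyond 1.5 times in 26 of 39) and 0 to 3 in the share comparisons. The share test over all 22 rows, added after seeing the data, gave 1. RNAcentral entries of the related classes called at EGME75 numbered 4, all higher (522 and 476 of 2656 entries), 7 under library totals alone, 3 and 4 (447 and 913), and 5 under RLE factors, 3 and 2 (471 and 1353). The sign turned for ENSRNOT00000077383 in DESeq2 (-0.050), with near-copy rows reduced (-0.066) and with scaling on non-members (-0.25), and with tRNA totals for ENSRNOT00000083352 (0.058) and ENSRNOT00000079238 (0.16). No paired analysis was possible because each replicate number belongs to a single library of a single group.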
